A study of Mus musculus with 37 samples.

Results

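The Hox genes, 39 of the 27999 gene rows counted in this series, were followed here through single mouse embryonic fibroblasts that carried a pool of reprogramming factors. They were taken by symbol alone (Hox, a cluster letter from a to d, and a group number of 1 to 13), and their antisense and host transcripts were left out. The series holds 37 Drop-seq libraries of fibroblasts from the ICR strain, sampled on day 7 after retroviral infection with the same 48 factors. The labels number all of them as technical replicates of 1 biological replicate, and there is no uninfected group. Every comparison is therefore between cells of the same libraries, and its p-values measure the technical spread of 1 culture.

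The pool, which every cell compared here could have received, held the GATA factors Gata4, Gata5 and Gata6, the HAND factors Hand1 and Hand2, the T-box factors Tbx2, Tbx3, Tbx5 and Tbx18, and the MEF2 factors Mef2a, Mef2b, Mef2c and Mef2d. It also held the homeobox genes Meis1, Nkx2-5, Isl1, Msx1, Msx2, Shox2, Pou2f1 and Pou6f1, the helix-loop-helix genes Mesp1, Msc, Myod1, Tcf3, Hey1 and Hey2, and the nuclear receptors Nr2f2, Rarg and Rxra. The rest were Myocd, Smarcd3, Smad4, Notch1, Foxn4, Jazf1, Lbh, Cdkn1a, Xiap, E330017L17Rik, the deacetylases Hdac1, Hdac2 and Hdac4, and the microRNAs Mir1a-1, Mir133a-1, Mir145a, Mir208a and Mir499. No Hox gene was in the pool. The groups compared are cells with at least 1 count of Meis1 (3279 of 3368 such cells found a partner), Gata6 (2005), Hand2 (912), Tbx5 (448), Myod1 (351 of 353) or Mef2c (2234), each against the same number of cells of the same libraries without that factor, paired on total counts. A count of a factor can come from the delivered or the cell's own gene, and a cell without a count can still carry the factor.

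Hox genes encode homeodomain transcription factors and lie in 4 clusters, in which low-numbered genes are used towards the head and high-numbered genes towards the tail and the ends of the limbs. Genes of the same number in different clusters form a group of close relatives. MEIS and PBX proteins bind DNA together with many Hox proteins, retinoic acid induces the low-numbered genes, and Polycomb complexes hold the unused genes silent. Cultured fibroblasts are known to keep much of the Hox pattern of the body site they came from. A culture made from embryos can thus hold cells of many positions.

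Promoter sequence was available for 22 of the 39 genes, as 24 windows of the 250 bases before a RefSeq transcription start on GRCm38.p6. The windows of Hoxd10 and Hoxd11 are shown because, over all libraries together, these neighbours had the highest ratio of observed to expected cells with both genes among the 496 pairs compared. The window of Hoxa2 is shown because its mean was 0.472 times that of matched cells where a transcript of groups 11 to 13 was found, and the window of Hoxb8 because this gene fell with Hand2. They lie at chr2:74691641-74691890 on the plus strand (Hoxd10), chr2:74682073-74682322 on the plus strand (Hoxd11), chr6:52164832-52165081 on the minus strand (Hoxa2) and chr11:96281655-96281904 on the plus strand (Hoxb8). Capitals mark matches, on either strand, to 3 searched motifs: TGACAG, bound by MEIS proteins, TGATNNAT, bound by PBX with Hox proteins, and TTTATNG, bound by Hox proteins of high number.
Hoxd10: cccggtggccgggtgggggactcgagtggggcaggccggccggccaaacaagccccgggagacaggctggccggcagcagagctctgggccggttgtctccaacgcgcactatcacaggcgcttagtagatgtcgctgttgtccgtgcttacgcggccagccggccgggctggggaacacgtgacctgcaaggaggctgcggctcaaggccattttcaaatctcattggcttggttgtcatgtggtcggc
Hoxd11: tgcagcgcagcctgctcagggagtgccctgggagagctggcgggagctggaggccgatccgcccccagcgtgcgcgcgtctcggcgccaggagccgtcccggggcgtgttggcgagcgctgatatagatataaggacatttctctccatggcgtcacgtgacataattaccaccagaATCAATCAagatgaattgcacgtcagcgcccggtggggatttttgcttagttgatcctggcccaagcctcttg
Hoxa2: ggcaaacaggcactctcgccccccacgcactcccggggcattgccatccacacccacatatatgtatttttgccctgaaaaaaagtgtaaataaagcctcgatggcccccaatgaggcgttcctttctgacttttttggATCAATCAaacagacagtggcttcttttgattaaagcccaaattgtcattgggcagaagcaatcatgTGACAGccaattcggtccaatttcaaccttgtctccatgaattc
Hoxb8: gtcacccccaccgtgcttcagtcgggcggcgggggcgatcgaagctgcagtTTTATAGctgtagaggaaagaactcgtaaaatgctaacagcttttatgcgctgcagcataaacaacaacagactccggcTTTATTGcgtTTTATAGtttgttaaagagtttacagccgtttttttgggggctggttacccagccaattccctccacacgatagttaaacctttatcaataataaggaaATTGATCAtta
The Hoxd10 window held no match. The Hoxd11 window held 1 match to the PBX-HOX motif, the Hoxa2 window 1 match each to the PBX-HOX and MEIS motifs, and the Hoxb8 window 1 PBX-HOX match and 3 matches to the motif of high-numbered Hox proteins. Among the 24 Hox windows, 2 held the MEIS motif, 4 the PBX-HOX motif and 2 the high-number motif. Of 32851 windows of the same length over all genes, 15.9% held the MEIS motif, 7.68% the PBX-HOX motif and 9.81% the high-number motif. The motif AGATAA of GATA6 and its relatives was found in 0 of the 24 Hox windows and in 9.99% of all windows. The T-box motif AGGTGT was found in 3 Hox windows and in 11.8% of all windows, and the helix-loop-helix motif CANNTG in 17 and in 66.2%. These matches describe the letters only.

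The counts behind the levels came from 8576 cells with 120025997 counts, after 89 copies of barcodes shared between libraries and 65 near-identical barcodes had been removed. The remaining cells had a median of 8565.5 counts and 3568 genes, and the libraries held 70 to 550 cells and 637680 to 7973580 counts. Technical replicates 4 and 6 shared 59 cell barcodes, against at most 4 in any other pair, and were counted as 1 library, which leaves 36. By name the libraries fall into a JD, a PZ47-PZ48 and a PZ58 series of 15, 15 and 6 libraries. A set of 12 fibroblast markers summed to means of 12995 to 18367 CPM (counts scaled to the same total in every library) in the groups compared below. Clusters of macrophage-like, mesothelial-like and glial-like cells reached 14694, 16419 and 17435 CPM, inside the same range. The sum cannot tell fibroblasts from these types, so it is no check of the labelled cell type.

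All 39 Hox genes had at least 1 count, and together they averaged 637 ± 48.4 CPM (SD, n = 36 libraries). The level was highest in the middle of the clusters. Groups 5 to 8 (11 genes) summed to 307 ± 27.3 CPM and groups 1 to 4 (12 genes) to 159 ± 16.9. Groups 9 and 10 (7 genes) summed to 158 ± 18.8, and groups 11 to 13 (9 genes) to 12.3 ± 5.29 CPM. These sums depend on the number of genes, which is smallest for groups 9 and 10. By cluster, HoxB gave 36.9% of the Hox counts, HoxC 32.1%, HoxA 25.6% and HoxD 5.39%, with sums of 234 ± 24.7, 205 ± 22.4, 163 ± 17.0 and 34.4 ± 7.57 CPM. The lowest HoxC library (149 CPM) lay above the highest HoxD library (57.3 CPM).

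The gene with the highest level was Hoxc8, a gene of thoracic and brachial identity, at 62.5 ± 10.2 CPM, with 41.0 in the lowest, 62.0 in the median and 82.4 in the highest library. Hoxb9, which helps to pattern the ribs, had 28.2, 50.5 and 70.1 CPM in its lowest, median and highest library (mean 50.8 ± 9.24). Hoxc6, also used in the thorax, had 32.1, 49.6 and 66.2 CPM (mean 50.2 ± 7.20). The ranges of these 3 genes overlap. For each of the 38 neighbouring pairs in the order of the family, the mean difference was within the SD of that difference over libraries. This SD describes single libraries and does not bound the mean difference. Hoxc8 was above Hoxb9 in 31 of 36 libraries, and Hoxb9 above Hoxc6 in 19 of 36. Hoxa7 and Hoxb7, close relatives of 1 group, averaged 44.5 ± 7.87 CPM (27.1 to 56.8, median 45.6) and 39.9 ± 6.42 CPM (24.3 to 51.9, median 40.2).

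Genes of the front end were present as well. Hoxb2, a hindbrain gene, averaged 38.3 ± 5.52 CPM, with 25.2, 37.8 and 49.5 in its lowest, median and highest library. Hoxa5, which acts at the level of the neck, lung and shoulder, averaged 35.0 ± 6.64 CPM (24.0, 34.3 and 54.2). Hoxb4, known for the expansion of blood stem cells, averaged 30.7 ± 8.30 CPM (17.25, 30.8 and 53.3), and Hoxb3, used in hindbrain and pharynx, 24.6 ± 4.88 CPM (16.9, 24.6 and 35.9). Towards the tail, Hoxc10, a gene of lumbar and hindlimb level, averaged 29.2 ± 7.58 CPM (13.1, 29.3 and 42.9), the thoracic gene Hoxc9 27.4 ± 5.09 CPM (17.3, 27.5 and 37.3), and Hoxa9 23.8 ± 5.39 CPM (15.9, 22.9 and 40.4). No library was at 0 for any of these 12 genes. On a scale per kilobase of annotated exon the order changed, with Hoxb7 at 25.8 CPM per kb ahead of Hoxc8 at 22.1, Hoxc6 at 20.8, Hoxb9 at 19.8 and Hoxa5 at 18.6. In these 3′ tag counts a count does not scale with transcript length, so the order per kb is given only beside the plain one.

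**Figure D1:**
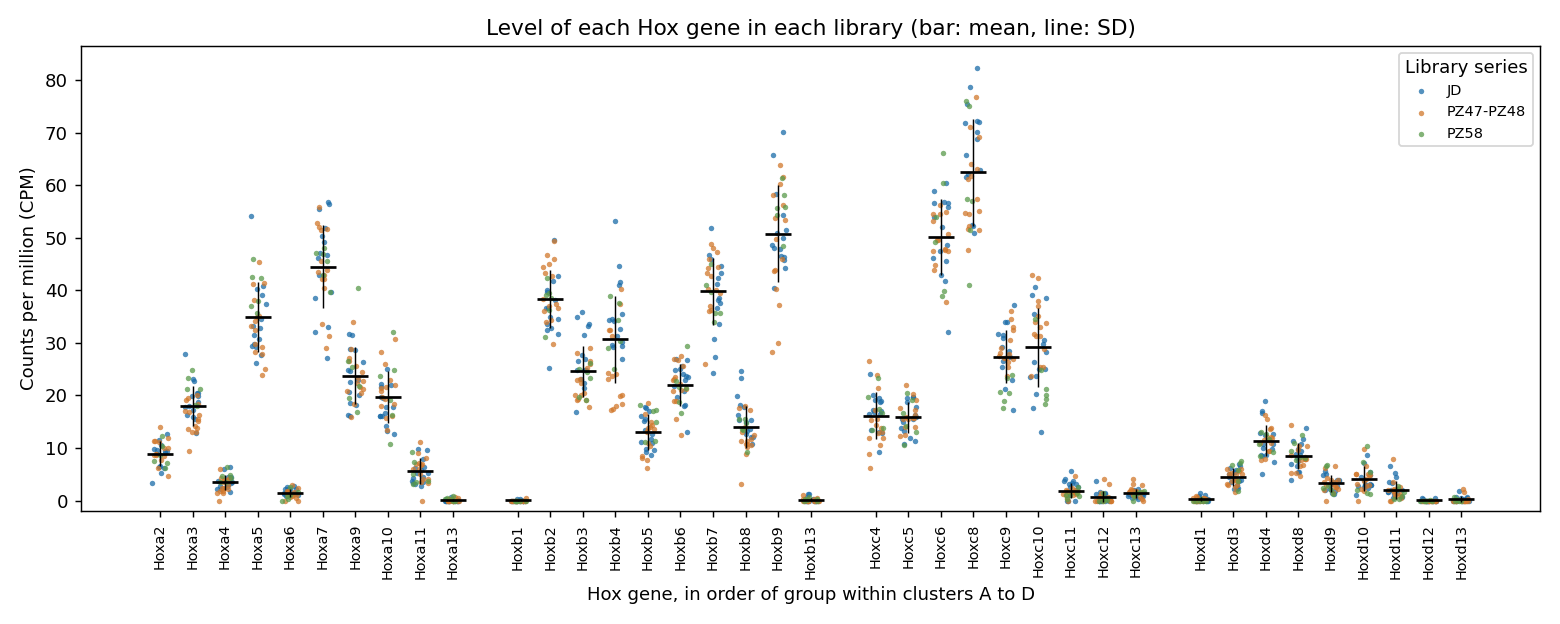
Each point is the CPM of a named Hox gene in 1 of 36 libraries, coloured by library series; the bar is the mean and the line the SD. Levels peak at Hoxc8, Hoxb9 and Hoxc6, and the members of groups 11 to 13 average at most 5.61 CPM (Hoxa11).

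Of the other 27 genes, 8 averaged at least 10 CPM, from Hoxb6 at 22.0 ± 3.95 to Hoxd4 at 11.4 ± 2.97 CPM, and 7 averaged under 1 CPM. The rarest were Hoxb1, a gene of the hindbrain, with 4 counts over all cells, Hoxd12 with 6 and Hoxa13 with 19. Hoxb13, a gene of the tail end, had 25 counts, and Hoxd1 and Hoxd13 had 32 each. Hoxa11, which with Hoxd11 patterns the forearm and lower leg, was the most abundant gene of groups 11 to 13 at 5.61 ± 2.41 CPM (0 to 11.2). The summed level of all Hox genes was alike across library series, at 648 CPM in the JD, 624 CPM in the PZ47-PZ48 and 641 CPM in the PZ58 libraries. Single genes were not all alike. Hoxc9 averaged 28.4 ± 5.25, 29.1 ± 3.54 and 20.8 ± 2.38 CPM in JD, PZ47-PZ48 and PZ58. In the same order Hoxc10 averaged 27.8 ± 8.06, 33.0 ± 5.72 and 23.1 ± 6.03 CPM. The libraries also split at 100 CPM of Rps27a. Above and below it Hoxc9 averaged 23.5 ± 5.69 and 28.9 ± 4.01 CPM, and Hoxc10 21.9 ± 5.88 and 32.0 ± 6.24 CPM. All PZ58 libraries lie above and all PZ47-PZ48 libraries below, so between these the series and this class cannot be told apart.

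The number of Hox genes seen in a cell moved with its depth. A transcript of any Hox gene was found in 8033 of 8576 cells (93.7%, exact binomial 95% interval 93.1 to 94.2%), with a median of 4 different Hox genes per cell and at most 29. Thinned to 3000 counts per cell (8190 cells, 386 shallower ones left out) the share was 78.7%, and to 5000 counts (6752 cells) 89.9%. The median fell to 1 Hox gene per cell (at most 11) at 3000 counts and to 2 (at most 11) at 5000, and 5 or more Hox genes were seen in 44.2% of cells unthinned, 4.38% at 3000 and 14.6% at 5000 counts. The highest-numbered gene found was of group 9 or 10 in 48.6% of cells, of groups 5 to 8 in 29.5%, and of groups 11 to 13 in 714 cells (8.33%, interval 7.75 to 8.93%). After thinning to 3000 counts the same classes held 29.1%, 34.2% and 3.03% of cells. Such intervals cover counting error only.

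The comparison with a cell type that should lack this pattern was limited. In 28 macrophage-like cells (median 6742 counts), 19 had a Hox transcript (67.9%), 1 had one of groups 11 to 13, and the Hox sum was 465 CPM (exact Poisson interval 402 to 536). Their fibroblast markers summed to 14694 CPM, against 4948 to 22427 CPM in the other clusters of cells, so these barcodes are no clean background. For 8 of the 39 genes, Hoxb9 among them (35.7% against 33.9%), the share in macrophage-like cells was at or above that in all cells, and those shares are not read as expression in the cell. Levels over libraries, and pairs of genes within classes of library and depth, are read instead.

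Some members cannot be told apart from transcripts that overlap them. The strand setting of the counting is not given in the sources used here. Of the cells with Hoxb2, 98.2% also had a count of Hoxb3os, a non-coding transcript of the opposite strand, as did 95.6% of those with Hoxb3. For Hoxa4 and the opposite Gm29430 the share was 82.7%, and for Hoxa7 and Hoxaas3 51.4%. On the same strand, 50.9% of the cells with Hoxd3 had Hoxd4, whose annotated exons it overlaps, and 36.0% of the cells with Hoxc5 had Hoxc10. The values of these genes are uncertain, and 12 members in all overlap another gene with counts.

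Neighbouring Hox genes were found in the same cells. For 32 genes present in at least 100 cells, the number of cells with both genes of a pair was divided by the number expected within classes of library and depth (10 depth classes per library, inside which cells still differ in depth). Directly neighbouring genes of a cluster had a median ratio of 1.46, and all 27 such pairs lay above 1. The median was 1.33 at 2 steps (24 of 24 above 1), 1.21 at 3 steps (20 of 20), 1.12 at 4 steps (12 of 16), 0.992 at 5 steps (6 of 12) and 0.917 at 6 or more (6 of 17). Over all 496 pairs the median was 1.07. With 20 depth classes per library the median was 1.40 for direct neighbours (27 of 27 above 1), 1.20 for equal groups of different clusters and 1.06 for all pairs, all slightly lower than with 10.

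The same held between clusters, which lie on different chromosomes. Pairs of the same group number had a median ratio of 1.22, with 31 of 32 above 1, and the median was 1.16, 1.15, 1.05, 0.997, 0.957 and 0.868 at group differences of 1, 2, 3, 4, 5 and 6 or more. In the last class 21 of 95 pairs lay above 1. The pairs share cells, libraries and genes, so these are descriptions with no test. Without the 6 pairs whose exons overlap each other or a gene common to both, the medians were 1.46, 1.22 and 0.868 for direct neighbours, equal group and 6 or more groups apart. Pairs from 1 to 3 steps apart had medians above 1 within each of the 3 library series.

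**Figure D2:**
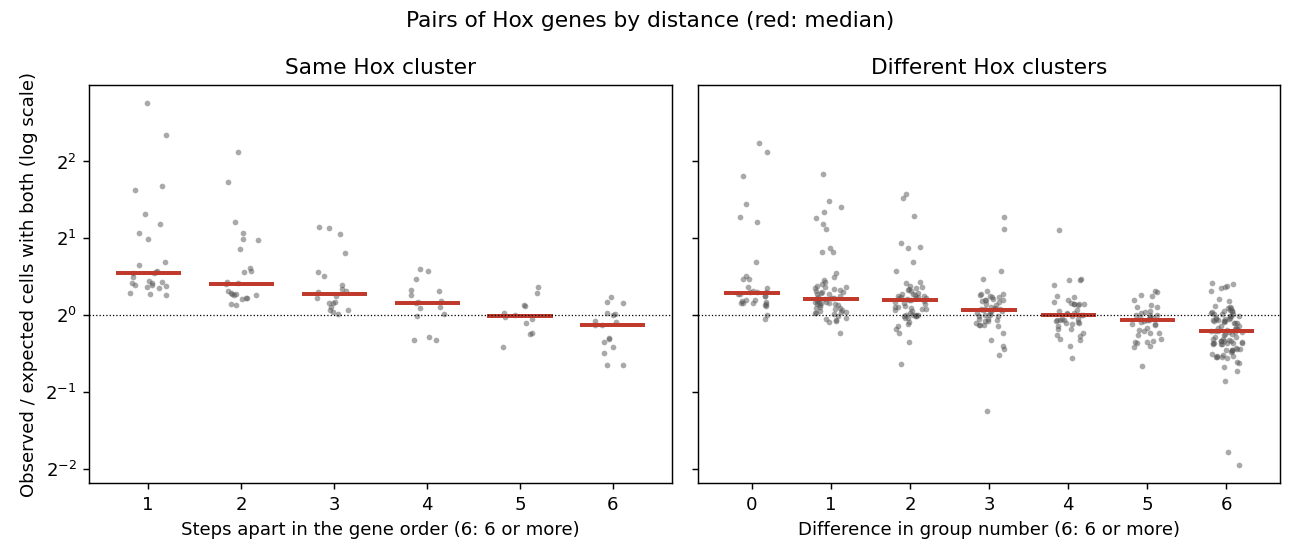
Each point is a pair of Hox genes, placed by its distance along a cluster (left) or by the difference in group number between clusters (right); the vertical axis, a log scale, is the observed over the expected number of cells with both genes, and red bars are medians. The medians fall with distance in both panels, from 1.46 to 0.917 on the left and from 1.22 to 0.868 on the right.

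Over all libraries together, the highest ratios belonged to the far end of the clusters. The highest value such a ratio can take is larger for a gene found in few cells. Hoxd11 was found in 1.62% of cells, Hoxc11 in 1.95% and Hoxd10 in 3.10%, against 33.9% for Hoxb9. The sizes of the ratios are therefore not compared between rare and common genes. Hoxd10 and Hoxd11, whose promoters are printed above, were found together in 63 cells against 9.29 expected, a ratio of 6.78. Hoxd9 and Hoxd10 shared 95 cells against 18.6 expected (5.10), and Hoxd9 and Hoxd11 44 against 10.1 (4.34). Between chromosomes, Hoxc11 and Hoxd11 shared 26 cells against 5.50 (4.73), and Hoxa11 and Hoxd11 59 against 13.6 (4.35). In the HoxA cluster Hoxa10 and Hoxa11 shared 279 cells against 90.4 (3.09). Each of these 6 ratios was above 2 in every library series, with the lowest, 2.09, for Hoxd9 and Hoxd11 in PZ58. Which pair stood highest depended on the setting. With 20 depth classes Hoxd10 and Hoxd11 had 5.35 and Hoxc11 and Hoxd11 3.76. Hoxc11 and Hoxd11 stood highest after thinning to 3000 counts (12.5, from 3 cells), with Hoxd10 and Hoxd11 at 10.9 from 7 cells, and within PZ58 (7.70, from 4 cells), with Hoxd10 and Hoxd11 at 4.16 from 7 cells. The better-filled pair Hoxa10 and Hoxc10 shared 594 cells against 257 expected (2.31).

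Most of the lowest ratios paired a front gene with a tail gene. Hoxa4 and Hoxc11 shared 3 cells against 11.6 expected (0.258), Hoxa4 and Hoxd11 3 against 10.4 (0.289), and Hoxb3 and Hoxc11 31 against 56.2 (0.552). An exception among the lowest was Hoxa6 with Hoxd3, at 5 against 11.9 (0.422). Within HoxB, the pairs among the genes of groups 2 to 9 ranged from 1.00 to 1.52. These genes were found in 12.6% (Hoxb5) to 33.9% (Hoxb9) of cells, which limits how high their ratios can go. Hoxd3 and Hoxd4 had 3.20, but their exons overlap and they are not read as a pair.

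**Figure D3:**
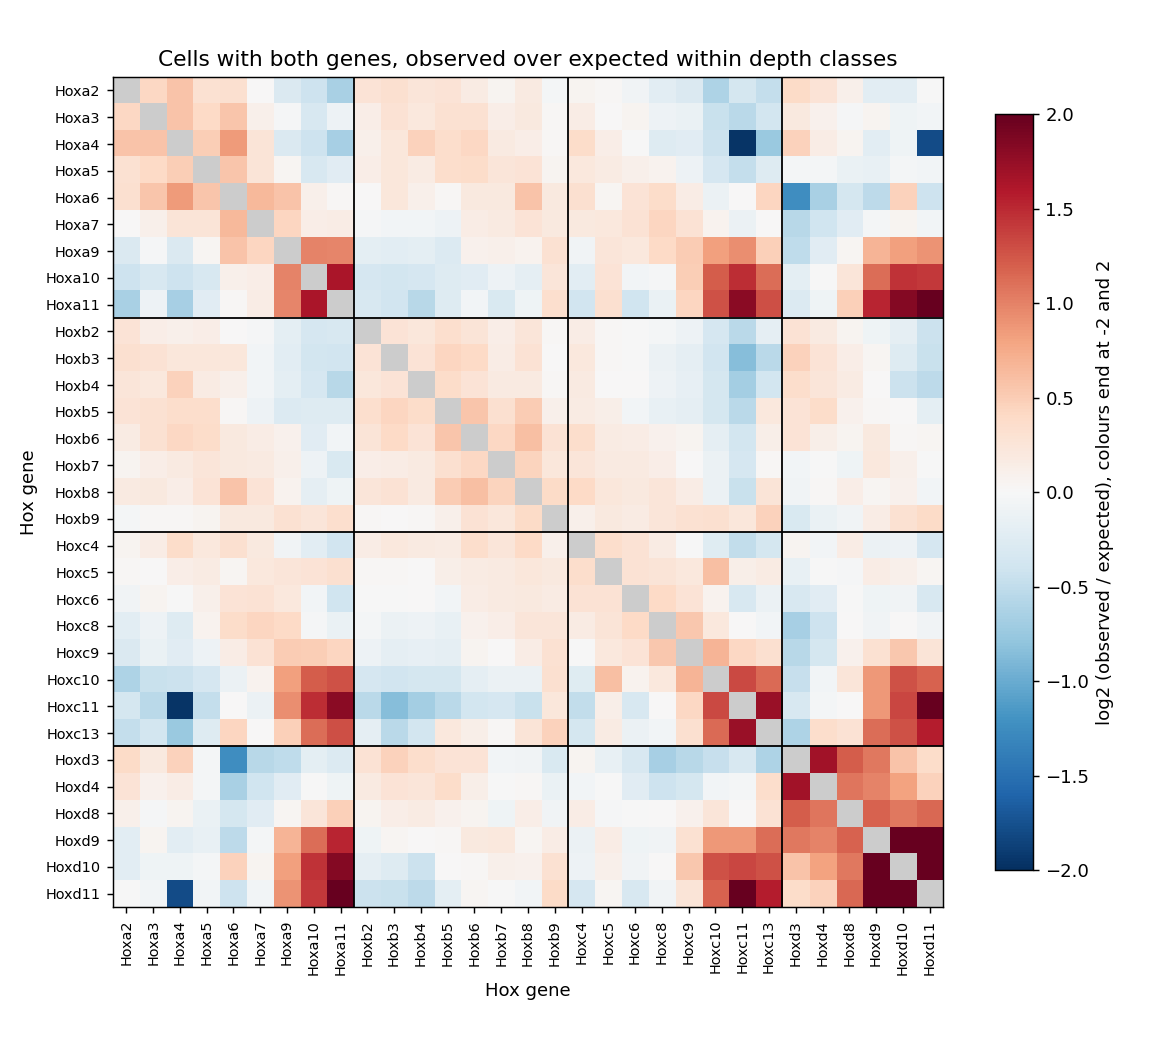
The matrix gives, for Hox genes found in at least 100 cells, in order within clusters A to D (black lines), the log2 ratio of observed to expected cells with both genes of a pair; red is above and blue below expectation, grey is the diagonal, and colours end at -2 and 2. The darkest red joins high-numbered genes of HoxA, HoxC and HoxD, such as Hoxd10 with Hoxd11 (ratio 6.78), and the values of Hoxd3 with Hoxd4 and of Hoxc5 with Hoxc10 include overlapping exons. Genes found in few cells can reach higher ratios.

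A few genes of limb and trunk position, picked for this pattern from lists of such regulators after their values had been seen, shared more or fewer cells with particular Hox genes than expected. They do not stand for their lists, and in the comparison of groups 11 to 13 below, 0 of 40 limb and position genes tested passed, with a median log2 change of 0.07. Pitx1, a hindlimb gene found in 280 cells, shared 159 cells with Hoxc10 against 69.8 expected (2.28) and 126 with Hoxa10 against 60.7 (2.08). It shared 29 with Hoxc11 against 11.5 (2.52), but only 26 with Hoxa2 against 47.7 (0.545). High-numbered HoxD genes went the other way from those of HoxA and HoxC. Pitx1 shared 8 cells with Hoxd9 against 16.6 (0.483), 11 with Hoxd10 against 15.6 (0.706) and 5 with Hoxd11 against 8.72 (0.573). Tbx4, the other hindlimb gene, shared 48 of its 140 cells with Hoxa10 against 28.7 (1.67) and 52 with Hoxc10 against 32.8 (1.58). Zic1, a gene of dorsal trunk tissue, shared 89 cells with Hoxd10 against 54.5 (1.63) and 137 with Hoxd3 against 78.7 (1.74), while its ratio with Hoxa10 was 0.961. Alx1, a gene of face mesenchyme, shared 10 cells with Hoxd9 against 25.8 (0.387) and 24 with Hoxd8 against 61.4 (0.391), but 260 with Hoxa7 against 197 (1.32). These counts are not independent of each other and were not tested.

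Cells were also grouped by all other genes, with the Hox genes and the pool left out of the clustering, which gave 18 clusters of cells. Over all cells of a cluster, the Hox sum was lowest in the skeletal muscle-like cluster (154 cells), at 409 CPM (exact Poisson interval 383 to 436), where fibroblast markers summed to 4948 CPM. It was 513 CPM (484 to 543) in mesothelial-like and 551 CPM (503 to 603) in glial-like cells, and 746 CPM (730 to 762) in an unnamed cluster of 670 cells led by Mmp3, Agt and Col10a1. In the macrophage-like cells, no clean background, it was 465 CPM (402 to 536). That interval overlaps those of the skeletal muscle-like, mesothelial-like and glial-like clusters. Over libraries with at least 5 of its cells, the skeletal muscle-like cluster averaged 397 ± 113 CPM (SD, n = 12) and the cluster led by Mmp3 729 ± 173 CPM (n = 35). A cluster of 74 cells led by predicted genes such as Gm10801 had 773 CPM (724 to 824) over all its cells and 727 ± 214 CPM over its 3 libraries with at least 5 cells, and is not ranked against the others.

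The HoxD sum also differed between clusters of cells. It was 58.6 CPM (54.9 to 62.5) in a cluster of 1074 cells led by Vip, Adam33 and Cxcl14, and 18.5 CPM (15.6 to 21.7) in one of 827 cells led by Spock3, Il1rl1 and Sim2. Over libraries these averaged 59.6 ± 31.8 and 19.6 ± 12.0 CPM (SD, n = 36 each). These clusters are described only, since they were made from the same cells.

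Whether cells with a factor differed in their Hox genes was tested for 6 factors with edgeR's quasi-likelihood test on counts summed per library, with the library as a block and Benjamini-Hochberg adjustment over all genes tested. Few Hox genes passed, and all that did were lower with the factor. The shares of all genes given beside them count both directions together. The lower direction is therefore not read as particular to the Hox genes. At an adjusted p under 0.05, Hoxb9 was lower with Gata6, Hoxb8 with Hand2 and Hoxa5 with Myod1, and no Hox gene passed with Meis1, Tbx5 or Mef2c. DESeq2 called the same number of Hox genes for each factor, namely 0 with Meis1, Tbx5 and Mef2c and 1 with Gata6, Hand2 and Myod1, against 3.23%, 6.73%, 4.69%, 0.457%, 12.7% and 5.22% of all genes with Meis1, Gata6, Hand2, Tbx5, Myod1 and Mef2c. The 6 comparisons draw on the same cells, and many cells hold several factors.

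**Figure D4:**
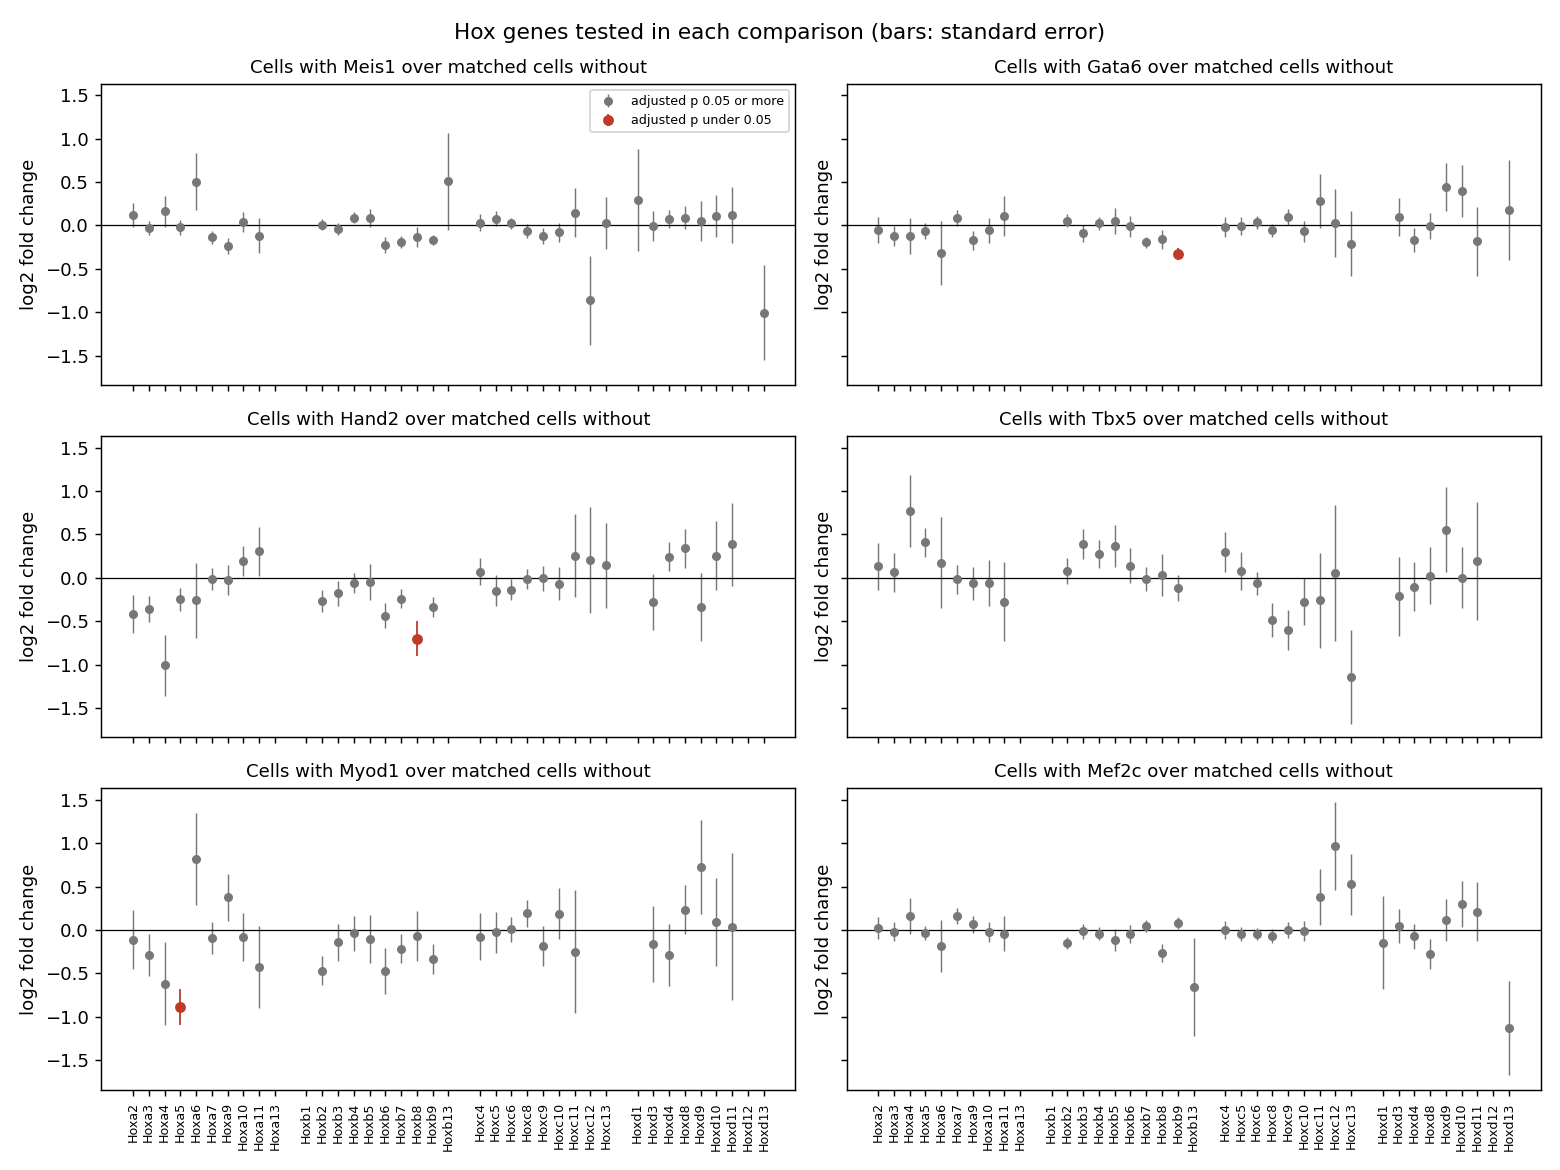
Each panel gives, for the named Hox genes tested with 1 factor, the log2 fold change of cells with the factor over matched cells without it, with its standard error; red marks an adjusted p under 0.05. Hoxb9 with Gata6, Hoxb8 with Hand2 and Hoxa5 with Myod1 are the red points, all below 0.

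Meis1 encodes the DNA-binding partner of Hox proteins. With Meis1, 0 of 36 Hox genes tested passed, against 2.65% of all 16774 genes. Their median log2 change was 0.02 (0.01 over all genes), and the Hox sum was 621 ± 54.6 CPM in cells with Meis1 and 648 ± 72.5 CPM in cells without (SD, n = 36 libraries). At an unadjusted p under 0.05 stood 4 Hox genes, all lower (14.7% of all genes, in either direction). Hoxb9 had 23.6, 47.1 and 71.4 CPM in the lowest, median and highest library with Meis1, and 14.2, 53.8 and 88.7 CPM without, with a log2 change of -0.17 (SE 0.06, adjusted p 0.102 by edgeR). Hoxb7 had a log2 change of -0.19 (SE 0.07, adjusted p 0.129). Matching was incomplete here, since cells with Meis1 kept a median of 12168 counts and their partners 9683. In pairs within 10% of each other's depth, a restriction added after these depths had been seen, Hoxb7 (log2 change -0.28, adjusted p 0.0214 by edgeR) and Hoxb9 (-0.22, adjusted p 0.0454) passed.

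Among other genes with Meis1, the related cofactor gene Meis2 rose to 98.2 ± 17.6 CPM, against 80.1 ± 14.6 without (log2 change 0.29, SE 0.05, edgeR adjusted p 0.000247, higher in 30 of 36 libraries). It was the 1 of 10 cofactor genes tested that passed. Of 24 regulators of Hox genes tested, 1 passed, the Polycomb gene Phc2, at 53.6 ± 11.4 CPM with and 60.1 ± 10.1 CPM without Meis1 (adjusted p 0.0340 by edgeR). Of 43 limb and position genes, 3 rose, Prrx1 and Gli3 among them, and 3 fell (Foxd1, Irx3 and Zic1). The face gene Alx1 rose to 8.00 ± 3.92 CPM, against 4.98 ± 4.00 without (log2 change 0.74, SE 0.19, edgeR adjusted p 0.0218). Markers of other cell types moved as well. Of the skeletal muscle markers 3 of 15 fell (Mylpf, Tnnc2 and Tnnt3), with sums of 828 ± 476 CPM with and 1322 ± 950 CPM without Meis1. Of 12 cardiomyocyte markers Actc1 fell (sums of 485 ± 266 CPM with and 827 ± 581 CPM without), of 5 chondrocyte markers tested Col2a1 and Comp fell, and of 12 macrophage markers C1qa fell. Of 12 fibroblast markers 3 rose (Dcn, Postn and Prrx1) and 2 fell. The part of these markers in the changes with Meis1 was not tested.

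Gata6, a factor of heart and gut endoderm, went with a lower Hoxb9. Hoxb9 had 9.60, 42.9 and 77.1 CPM in the lowest, median and highest library with Gata6, and 33.4, 52.0 and 92.9 CPM without (means 43.9 ± 13.2 and 54.8 ± 13.8, n = 36). The ranges overlap, and the level was lower with Gata6 in 26 of 36 libraries (log2 change -0.33, SE 0.07, edgeR adjusted p 0.00133). It was the only 1 of 34 Hox genes tested to pass, against 6.32% of 16307 genes, and the median log2 change was -0.01 for the Hox genes and 0.01 for all genes. At an unadjusted p under 0.05 stood 2 Hox genes (18% of all genes), Hoxb9 and Hoxb7. Hoxb7 had 37.3 ± 8.24 CPM with and 43.0 ± 11.2 CPM without Gata6 (log2 change -0.19, SE 0.06, edgeR adjusted p 0.0506). In cells with none of the other 5 factors on either side, Hoxb9 changed by -0.13 (edgeR adjusted p 0.854), and with at least 2 counts of Gata6 by -0.65 (adjusted p 4.6e-05). Within JD, PZ47-PZ48 and PZ58 alone it changed by -0.25, -0.36 and -0.46 (adjusted p 0.319, 0.148 and 0.277).

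All 12 mesothelial markers also rose with Gata6 (sums of 658 ± 315 CPM with and 189 ± 162 CPM without), as did 7 of 12 cardiomyocyte markers, while 6 of 12 fibroblast markers fell and 3 rose. Hoxb9 changed by -0.30 (edgeR adjusted p 0.00513) without the cells of mesothelial-like and other named types. Among the regulators of Hox genes, the retinoic acid enzyme gene Aldh1a2 rose to 22.9 ± 14.9 CPM, against 7.18 ± 7.09 without (log2 change 1.63, SE 0.20, edgeR adjusted p 1.30e-07), and the histone demethylase gene Kdm6b rose by 0.27 (adjusted p 0.0147). Of 42 limb and position genes, 4 rose and 6 fell, including Prrx1, a marker of limb mesenchyme, at 402 ± 82.6 CPM with and 492 ± 74.5 CPM without (adjusted p 1.54e-05 by edgeR). Among the 4 rises was Hand2, itself a member of the pool (log2 change 0.93, SE 0.18, edgeR adjusted p 0.000380).

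Hand2, a factor of heart and posterior limb bud, went with a lower Hoxb8. Hoxb8, known from blood progenitors and the thoracic skeleton, had 0, 7.61 and 29.9 CPM in the lowest, median and highest library with Hand2, and 0, 14.7 and 50.8 CPM without (means 8.79 ± 6.85 and 15.7 ± 9.85, n = 36). It was lower with Hand2 in 29 of 36 libraries (log2 change -0.70, SE 0.20, edgeR adjusted p 0.0323). It was the 1 of 33 Hox genes tested that passed, against 4.32% of 15041 genes. The 7 Hox genes with an unadjusted p under 0.05 were lower without exception (15.3% of all genes had one, in either direction). Of these 7, 5 are of HoxB, namely Hoxb2, Hoxb6, Hoxb7, Hoxb8 and Hoxb9. All 8 HoxB genes tested had a negative log2 change, as they also had with Myod1. HoxA was close to this, with 8 of 10 genes negative with Hand2 and 8 of 10 with Myod1. Over all genes tested with Hand2 the median log2 change was -0.0045. The HoxB sum was 188 ± 47.6 CPM with and 236 ± 60.2 CPM without Hand2. Its ranges over libraries overlap (76.9 to 282 and 103 to 400 CPM), and it was higher with Hand2 in 9 of 36. HoxD summed to 36.0 ± 15.3 CPM with and 31.2 ± 14.9 CPM without, and that difference is within the spread over libraries.

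Hoxb8 no longer passed with at least 2 counts of Hand2 (log2 change -0.55, edgeR adjusted p 0.287) or in cells with none of the other 5 factors (-0.51, adjusted p 0.959). Within JD, PZ47-PZ48 and PZ58 alone the change was -0.72, -0.63 and -0.81 (edgeR adjusted p 0.395, 0.586 and 0.746). Of the mesothelial markers 8 of 12 rose with Hand2 and of the skeletal muscle markers 10 of 15 fell, and without cells of those types Hoxb8 changed by -0.69 (edgeR adjusted p 0.0307). In the lists, Aldh1a2 rose (log2 change 1.15, SE 0.31, edgeR adjusted p 0.0200), as did Hand1 (2.18, adjusted p 0.00147), also a member of the pool. The BMP antagonist gene Grem1 fell to 152 ± 116 CPM, against 232 ± 158 without (log2 change -0.68, SE 0.15, edgeR adjusted p 0.00369).

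Tbx5, a factor of heart and forelimb, gave no Hox call in depth-matched cells. Of 33 Hox genes tested over 35 libraries 0 passed, against 0.415% of 14220 genes, and the Hox sum was 655 ± 130 CPM with and 627 ± 147 CPM without Tbx5. An unadjusted p under 0.05 was reached by 6 Hox genes, 2 higher and 4 lower (6.7% of all genes had one). Hoxc8 had 2.07, 38.3 and 233 CPM in the lowest, median and highest library with Tbx5, and 14.6, 55.6 and 247 CPM without (log2 change -0.49, SE 0.19, edgeR adjusted p 0.511). It passed without the filter on low counts (-0.50, edgeR adjusted p 0.00770) and in unmatched cells (-0.60, adjusted p 0.00997), as did Hoxc9. Hoxa5, of the forelimb level, had means of 35.3 ± 18.5 CPM with and 28.8 ± 19.6 CPM without (log2 change 0.41, SE 0.16, edgeR adjusted p 0.534). In the limb list Foxd1 fell to 4.74 ± 4.83 CPM, against 14.1 ± 13.4 without (log2 change -1.58, adjusted p 0.0105 by edgeR), and Zic1 to 8.06 ± 10.6 CPM, against 21.2 ± 16.6 without (-1.27, adjusted p 0.0114). The mesothelial markers summed to 499 ± 551 CPM with and 180 ± 179 CPM without Tbx5, higher in 28 of 35 libraries, and 1 of 12, Krt18, rose. Of 12 cardiomyocyte markers Nppa rose, of 4 neuron markers tested Map2 rose, and of 5 chondrocyte markers tested Col2a1 fell. The part of these markers in the changes with Tbx5 was not tested.

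Myod1, the master factor of skeletal muscle, went with a lower Hoxa5. Hoxa5 had 0, 21.5 and 90.8 CPM in the lowest, median and highest of 34 libraries with Myod1, and 8.79, 36.7 and 119 CPM without (means 23.4 ± 17.7 and 48.4 ± 30.6). It was lower with Myod1 in 28 of 34 libraries (log2 change -0.89, SE 0.21, edgeR adjusted p 0.00155), the 1 of 31 Hox genes tested that passed, against 14.3% of 13821 genes. Hoxb2 was the other Hox gene with an unadjusted p under 0.05 (24.5% of all genes had one), at 28.3 ± 16.3 CPM with and 37.8 ± 19.7 CPM without Myod1 (log2 change -0.47, SE 0.17, edgeR adjusted p 0.0524). Fitted within JD, PZ47-PZ48 and PZ58 alone, the log2 change of Hoxa5 was -0.53, -1.10 and -1.47, with edgeR adjusted p-values of 0.388, 0.0572 and 0.0747. Without the 5% deepest cells it was -0.51 (edgeR adjusted p 0.176), and with at least 2 counts of Myod1 -0.78 (adjusted p 0.0598).

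All 15 skeletal muscle markers rose with Myod1 (sums of 9753 ± 6144 CPM with and 316 ± 410 CPM without) and 7 of 12 fibroblast markers fell (sums of 12995 ± 3159 CPM with and 18016 ± 2538 CPM without). Without cells of the named types Hoxa5 changed by -0.83 (edgeR adjusted p 0.0434). A lower share of fibroblast RNA and a lower Hoxa5 level per fibroblast cannot be told apart in these sums. Beside the Hox genes, Prrx1 fell by 0.56 on the log2 scale (edgeR adjusted p 0.000414) and Aldh1a2 rose by 1.40 (adjusted p 0.0333), a call that DESeq2 did not make (adjusted p 0.122).

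Mef2c, a muscle and heart factor, gave no Hox call over all matched cells. With Mef2c 0 of 36 Hox genes tested passed, against 6.33% of 16536 genes, and the Hox sum was 632 ± 69.3 CPM with and 631 ± 66.8 CPM without. At an unadjusted p under 0.05 stood 3 Hox genes, all lower (16.4% of all genes, in either direction). Of these, Hoxb8 had 0, 13.2 and 26.4 CPM in the lowest, median and highest library with Mef2c, and 4.38, 14.9 and 35.3 CPM without (log2 change -0.26, SE 0.11, edgeR adjusted p 0.162). Hoxb8 passed in pairs within 10% of depth, a restriction added after the data had been seen (-0.36, edgeR adjusted p 0.0402), and without the 5% deepest cells (-0.43, adjusted p 0.0346). Hoxc8, the most abundant member, changed by -0.07 (95% interval -0.22 to 0.09). All 15 skeletal muscle markers rose in these cells too, at sums of 2012 ± 1467 CPM with and 399.7 ± 192 CPM without, as did 10 of 12 macrophage and 6 of 9 glial markers tested. Prrx1 fell to 426 ± 80.7 CPM, against 484 ± 67.4 without (edgeR adjusted p 0.000513).

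The last comparison took the 714 cells with a transcript of Hox groups 11 to 13, the genes of the tail and the outer limb, against 714 cells of the same libraries with none, at median depths of 16773.5 and 16649 counts. The Hox genes of groups 11 to 13 chose the cells and are not read. The other Hox genes are described without a test. All 7 genes of groups 9 and 10 had higher means in the chosen cells. Hoxa10, which suppresses ribs in the lumbar region, averaged 74.8 ± 38.3 CPM with and 8.35 ± 7.70 CPM without, and was higher in 36 of 36 libraries. Hoxc10 averaged 75.5 ± 31.7 and 20.5 ± 19.8 CPM (higher in 35 of 36), Hoxd10 16.5 ± 13.6 and 1.79 ± 3.66 CPM, and Hoxa9 45.5 ± 22.2 and 18.1 ± 10.1 CPM.

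Of the 23 genes of groups 1 to 8, 20 had lower means in the cells with groups 11 to 13. The other 3, Hoxc5, Hoxd1 and Hoxd8, had higher ones, where the exons of Hoxc5 overlap those of Hoxc10. This tally has no floor on counts. The 20 include Hoxb1, with 1 count on each side, and Hoxa6, with 26 on each side, and Hoxd1 had 9 counts with and 5 without. Hoxa2, a gene of the second pharyngeal arch, averaged 4.75 ± 3.51 CPM with and 10.1 ± 5.96 CPM without (lower in 26 of 36 libraries). Hoxc8 averaged 38.1 ± 20.0 CPM with and 65.0 ± 26.9 CPM without, Hoxc6 34.1 ± 17.7 and 56.5 ± 20.1 CPM, and Hoxa5 23.5 ± 14.1 and 39.7 ± 19.8 CPM. Hoxb8 was close, at 12.7 ± 10.3 CPM with and 13.7 ± 6.75 CPM without.

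**Figure D5:**
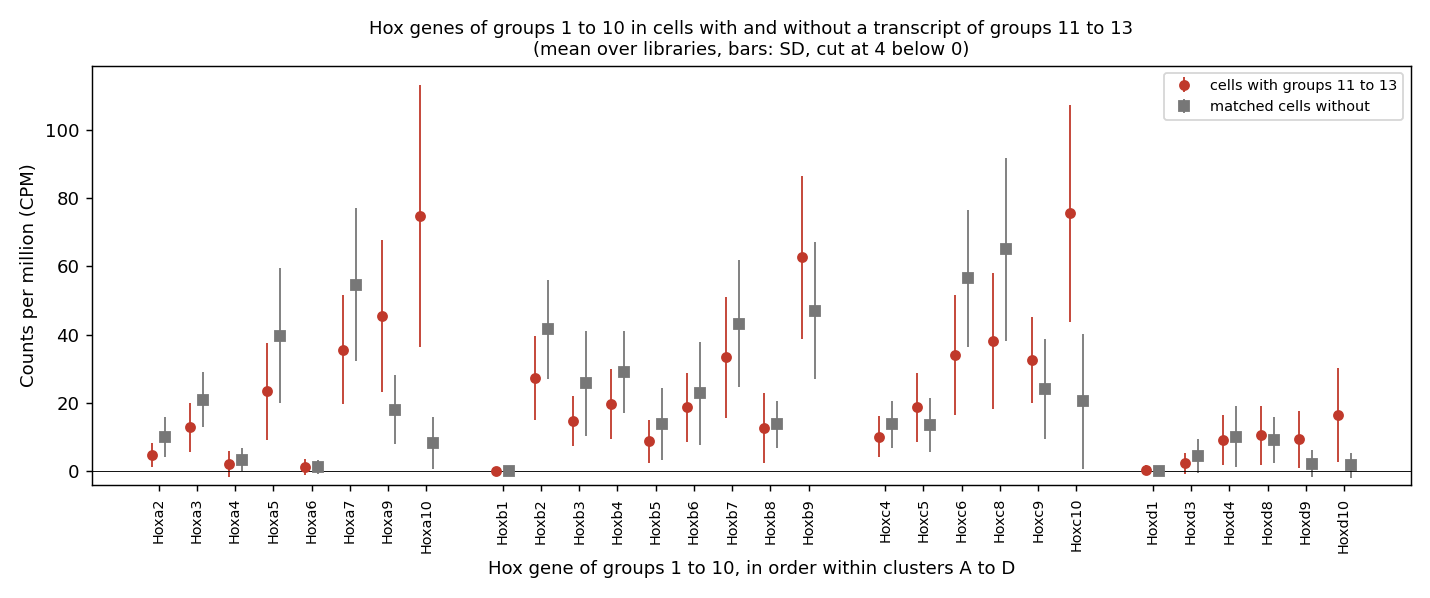
For each named Hox gene of groups 1 to 10 the mean CPM over 36 libraries is given in cells with a transcript of groups 11 to 13 (red circles) and in matched cells without (grey squares), with bars of 1 SD. Hoxa10, Hoxc10, Hoxd10 and Hoxa9 are higher in the red cells, and most genes of groups 1 to 8 are lower.

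Outside the Hox family, 59 of 14979 genes passed in this comparison (0.394%), 31 higher and 28 lower, by edgeR's quasi-likelihood test. Rgs5, a pericyte marker, had 0, 15.9 and 755 CPM in the lowest, median and highest library with groups 11 to 13, and 0, 3.46 and 32.1 CPM without (log2 change 2.77, SE 0.37, edgeR adjusted p 4.68e-06). It was higher in 31 of 36 libraries, but 1 library gave 44.0% of its 1240 counts in the chosen cells. Cxcl14, a chemokine gene, had medians of 185 CPM with and 49.97 CPM without (log2 change 1.40, adjusted p 0.00330 by edgeR). Dkk2, which modulates Wnt signals, had medians of 127 and 40.3 CPM (1.16, adjusted p 0.0116). Egfl6, Casp4, Thsd7a, Bmper, P2ry10b, 3300005D01Rik and Hs3st3b1 complete the 10 largest rises that had the same sign in the 3 library series, with log2 changes of 0.88 to 1.64. Cxcl14, Dkk2 and Egfl6 are also among the 10 leading genes of the cluster of 1074 cells led by Vip. Its sum of groups 11 to 13 was 19.0 CPM (exact Poisson interval 16.9 to 21.2). Sums over the 18 clusters ran from 2.41 to 20.6 CPM. Rgs5 is among the leading genes of a cluster of 707 cells with Myh11 and Actg2, at 12.8 CPM (11.0 to 14.8). The part of such clusters in these rises was not tested.

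Of the 10 largest falls, 6 are sarcomere or muscle genes. These are Actn2 (log2 change -2.76, edgeR adjusted p 0.00599), Tnni1 (-2.36), Myl1 (-2.27), Tnni2 (-1.96), the myoglobin gene Mb (-1.91) and Myl4 (-1.75). DESeq2 did not call Actn2 (adjusted p 0.534), Tnni2 (0.371) or Mb (0.0580). In the cells with groups 11 to 13, 1 library gave 57.5% of the counts of Actn2, 44.8% of Myl1 and 34.4% of Tnni1, and Actn2 had medians of 0 CPM with and 1.53 CPM without. The skeletal muscle markers summed to 729 ± 737 CPM with and 1428 ± 2658 CPM without, and without cells of the named types Actn2 and Myl1 changed by 0.10 and 0.11 on the log2 scale. The other falls were Cd36, a fatty acid receptor gene (-2.70), Elobl (-1.73), Dner (-1.17) and Sim2 (-1.16). Sim2 is also a leading gene of the cluster led by Spock3, whose part in this fall was not tested. DESeq2 did not call Cd36 (adjusted p 0.872) or Elobl (0.179), and 1 library gave 63.2% of the counts of Cd36 with groups 11 to 13 and 36.2% without.

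Of the lists of cofactors, regulators, limb and position genes, face genes and transcripts of the Hox loci or their flanks, the last had 2 of 19 tested genes past the threshold. Hoxb3os fell to 40.2 ± 16.7 CPM with groups 11 to 13, against 65.4 ± 22.8 without (log2 change -0.67, SE 0.12, edgeR adjusted p 0.00147, lower in 30 of 36 libraries). Hoxaas3 fell to 11.8 ± 6.37 CPM, against 21.0 ± 7.72 without (-0.65, SE 0.13, adjusted p 0.00433 by edgeR, lower in 30 of 36). Both overlap Hox genes of groups 2, 3 and 7, whose means were lower in the same cells. Of 11 cofactor genes, 24 regulators, 40 limb and position genes and 10 face genes tested, 0 passed. Pitx1 had 3.85 CPM in the median library with and 0 without (log2 change 1.48, SE 0.38, edgeR adjusted p 0.0702), and Alx1 2.99 with and 6.49 without (-1.10, SE 0.33, adjusted p 0.119).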

How the data were processed

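Per the submitters' processing notes, the reads were handled with bcl2fastq 2.17.1.14, STAR 2.5.3a, UMI-tools and featureCounts 1.5.3 on mm10. The deposited files hold whole-number counts of molecules per gene and cell barcode, 1 table per library. The annotation release and strand setting are not given in the sources used here. The members and lists were chosen with earlier results of these data known. Barcodes were kept from 500 counts. Cells with and without a factor were paired within library on total counts, summed per library, and compared with edgeR 4.0.16 (quasi-likelihood, trimmed-mean scaling, library block, at least 20 counts over the sums, adjusted p under 0.05), with DESeq2 1.42.0 as an alternative. Cells with and without a factor come from the same library, and this is the pairing. Cells were clustered with scanpy 1.11.5 without Hox and pool genes. The fit was tested on simulated data. Positions are from GENCODE on GRCm38. All members enter the counts and sums, though some single genes are not reported here by name, with full values for those past the threshold and the 12 of highest mean CPM, up to 4 genes per list, and the 10 largest rises and falls with groups 11 to 13. No doublet caller was run.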

Additional observations from a re-analysis of the deposited data

Results flagged for a closer look

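Non-coding transcripts of the Hox loci lie outside the factor comparisons of the Hox genes and held counts above the limit that a count of 0 allows. Hotairm1, in the HoxA cluster, had 2960 counts over all cells, and Haglr, in the HoxD cluster, had 216. Hotair, in the HoxC cluster, had 29 counts. In the comparison of groups 11 to 13, 24 counts of Hotair from 12 libraries lay in cells with such a transcript and 0 in matched cells without one. Its pooled level of 1.25 CPM was 7.40 times a floor of 3 counts over the group (0.169 CPM). This ratio leaves out the counting error of the 24 counts and is no lower bound. The fitted log2 change was 2.48 (SE 0.58, edgeR adjusted p 0.0953), so Hotair did not pass. Haglr overlaps Hoxd3 on the opposite strand, and what part of its counts belongs to that gene was not tested.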

How the results depend on the processing

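The number of Hox genes past the threshold moved with the choice of cells. The share of all genes past it under the same settings is not given here. The numbers below are therefore not read as a result about the Hox genes. With unmatched cells it was 2 for Meis1, 2 for Gata6, 7 for Hand2, 2 for Tbx5 and 3 for Myod1. In pairs within 10% of depth, chosen after the data had been seen, it was 2 for Meis1, 2 for Gata6, 3 for Hand2 and 1 for Mef2c. Without the 5% deepest cells it was 1 for Meis1, 2 for Hand2, 0 for Myod1 and 1 for Mef2c. Without a filter on low counts it was 3 for Hand2 and 2 for Tbx5, with plain library totals 2 for Myod1, and with at least 2 counts of the factor 0 for Hand2 and Myod1. In cells without the other 5 factors it was 0 for Gata6 and Hand2, and Myod1 had too few libraries for a value. Within JD, PZ47-PZ48 and PZ58 it was 0 each for Gata6, Hand2 and Myod1, and within the libraries with high Rps27a 0 for Gata6 and Hand2, with low Rps27a 0 for Hand2 and Myod1. With low Rps27a the 1 call for Gata6 was Hoxb7 (-0.26, edgeR adjusted p 0.0453) in place of Hoxb9 (-0.29, adjusted p 0.0516). The causes were not tested, beyond the fewer samples or cells that some of these leave.

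With groups 11 to 13, the 59 genes became 401 without the filter, 1058 unmatched, 99 in pairs within 10%, 28 in JD, 8 in PZ47-PZ48, 35 in PZ58, 28 with high and 30 with low Rps27a. Without the library as a replicate block 247 genes passed, and the block changed no count of Hox calls for any factor. Actn2 (0.10) and Myl1 (0.11) reversed without cells of other types. Of 330 values of 25 single genes, 202 kept their side of the threshold, 126 lost it and 2 reversed.

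Cells with a Hox transcript were 78.7% and 89.9% after thinning to 3000 and 5000 counts. The median pair ratio for direct neighbours was 1.58 thinned to 3000 and 1.36 in JD, for equal groups 1.28 thinned and 1.25 in PZ58, and for 6 or more groups apart 0.682 thinned and 0.763 in PZ58. Depth limits the rarest genes, down to 4 counts for Hoxb1.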
